A study of Mus musculus with 6 samples.

Results

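The genes described here encode the general transcription machinery: the subunits of RNA polymerases I, II and III (Pol I, Pol II and Pol III), the Mediator complex, TBP with its associated factors, and the other general transcription factors. They were chosen by name, as GRCm38 protein-coding genes whose symbol starts with Polr1, Polr2, Polr3, Med or Taf followed by a digit, Gtf2 or Gtf3, or is Maf1 or Tbp. This gave 107 of 21887 genes. A gene was called marked in a library when a peak of open chromatin overlapped the 1000 bp on either side of either end of the gene, and such a peak is called a gene-end peak.

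The data are ATAC-seq peaks, places where the enzyme Tn5 could cut open DNA, from islets of 16-week-old mice. There were 6 libraries in 3 groups of 2. Knockout-Acsl4 islets came from BetaRicKO mice, whose name stands for loss of Rictor from beta cells (Rictor is the subunit that sets mTORC2 apart from mTORC1), and were given an adenovirus with Acsl4, an enzyme that activates long-chain polyunsaturated fatty acids. Knockout-GFP islets came from BetaRicKO mice and received a GFP adenovirus, and control-GFP islets came from wildtype mice and received the same GFP virus. All islets were therefore exposed to virus, for 48 h ex vivo. The labels give neither the promoter that drives Cre nor whether libraries of 1 group stem from different animals, so p-values measure only the spread between these libraries, which may be technical. Islets also hold cells other than beta cells, and a region open in fewer cells cannot be told apart from one less open in each cell.

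The libraries differed widely before any gene was considered. They held 525 and 5874 peaks in knockout-Acsl4 1 and 2, 2206 and 4257 in knockout-GFP 1 and 2, and 4442 and 1628 in control-GFP 1 and 2. The share of peaks at a gene end was 35.8% and 5.29% in knockout-Acsl4 1 and 2, 67.2% and 75.5% in knockout-GFP 1 and 2, and 70.9% and 21.7% in control-GFP 1 and 2. Knockout-Acsl4 1, knockout-Acsl4 2 and control-GFP 2 thus stood apart from the other libraries in gene-end peaks. Rictor had no peak in any library, which checks nothing. Acsl4 had 0 peaks in both libraries labelled knockout-Acsl4, 6 in knockout-GFP 1, 0 in knockout-GFP 2, 7 in control-GFP 1 and 0 in control-GFP 2. Peaks do not measure its RNA, but those at Acsl4 were found only in libraries labelled GFP. Whether the virus labels are right was not tested, so knockout-Acsl4 below stands for the libraries labelled so. Of 12 beta cell markers, Nkx6-1 and Mafa were marked, both in knockout-GFP 2 and control-GFP 1, and Ins1 and Ins2 were not marked in any library. Of the markers of other endocrine cells 0 of 6 were marked, of acinar and ductal cells 1 of 10, and of endothelial, stromal and immune cells 0 of 10, so the beta cell identity of the tissue could be checked at few genes.

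Every gene that a cell transcribes is read by one of the nuclear RNA polymerases. Pol I makes the large ribosomal RNA precursor, Pol II makes messenger RNAs, and Pol III makes transfer RNAs and other short RNAs. Each is placed at its start sites by general factors, SL1 for Pol I, TFIIA to TFIIH with TBP and its TAFs for Pol II, and TFIIIA, TFIIIB and TFIIIC for Pol III, while Mediator links DNA-bound regulators to Pol II. These genes are needed in islets as in other tissues, and such housekeeping genes often have promoters rich in CpG, some of which also serve a neighbouring gene.

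The promoters of 7 members are shown because the results below turn on their peaks: 5 genes marked in 3 or more libraries and 2 whose marks followed the labelled groups. Each runs from 250 bases before to 50 bases after the start given by RefSeq (GRCm38.p6), 5′ to 3′ on the gene's own strand. Capitals mark exact matches, on either strand, to 9 short motifs. The letters searched were GCGCATGCG for the activator NRF1, AAGATGGCG for YY1, GGGGCGGGG for SP and KLF proteins, and TGACGTCA for the cAMP-responsive factor CREB. For proteins of the ETS family the letters were CCGGAAG, and for the heterotrimer NF-Y they were CCAAT. The E-box, which factors such as MYC and USF bind, was searched as CACGTG. The box that TBP itself binds was searched as TATAAA, and the core of the forkhead site of FOXO proteins was searched as GTAAACA.
Polr2a, chr11:69758584-69758883, minus strand: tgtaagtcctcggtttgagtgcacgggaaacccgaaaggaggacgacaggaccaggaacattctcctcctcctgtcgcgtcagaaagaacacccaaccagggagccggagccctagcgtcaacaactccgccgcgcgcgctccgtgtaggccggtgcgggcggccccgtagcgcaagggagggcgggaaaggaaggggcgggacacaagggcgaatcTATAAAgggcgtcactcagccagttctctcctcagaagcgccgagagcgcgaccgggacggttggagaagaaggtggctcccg
Polr2i, chr7:30231824-30232123, plus strand: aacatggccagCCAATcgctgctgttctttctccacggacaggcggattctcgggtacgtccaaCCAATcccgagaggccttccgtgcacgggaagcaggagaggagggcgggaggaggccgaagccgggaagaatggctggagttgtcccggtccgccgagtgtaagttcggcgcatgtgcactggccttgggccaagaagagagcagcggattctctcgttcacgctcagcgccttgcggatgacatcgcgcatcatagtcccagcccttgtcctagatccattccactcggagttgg
Med19, chr2:84678152-84678451, plus strand: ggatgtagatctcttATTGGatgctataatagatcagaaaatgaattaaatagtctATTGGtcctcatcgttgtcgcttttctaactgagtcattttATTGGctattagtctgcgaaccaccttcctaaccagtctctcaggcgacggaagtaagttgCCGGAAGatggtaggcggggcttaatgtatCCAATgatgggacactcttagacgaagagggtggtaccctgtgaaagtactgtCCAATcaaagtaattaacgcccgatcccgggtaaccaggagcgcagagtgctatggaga
Gtf2f1, chr17:57011239-57011538, minus strand: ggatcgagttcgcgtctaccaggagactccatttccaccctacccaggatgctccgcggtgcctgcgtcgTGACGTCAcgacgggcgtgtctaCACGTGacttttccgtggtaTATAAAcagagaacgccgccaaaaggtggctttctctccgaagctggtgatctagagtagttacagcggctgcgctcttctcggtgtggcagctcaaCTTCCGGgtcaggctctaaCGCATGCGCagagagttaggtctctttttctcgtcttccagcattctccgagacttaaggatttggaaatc
Polr3g, chr13:81710964-81711263, minus strand: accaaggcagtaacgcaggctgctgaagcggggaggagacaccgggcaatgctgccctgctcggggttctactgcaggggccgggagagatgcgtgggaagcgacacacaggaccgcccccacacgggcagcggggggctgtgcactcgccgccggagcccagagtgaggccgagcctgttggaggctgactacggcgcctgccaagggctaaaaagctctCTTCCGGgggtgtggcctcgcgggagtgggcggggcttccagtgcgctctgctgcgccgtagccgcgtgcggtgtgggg
Gtf2h5, chr17:6079578-6079877, plus strand: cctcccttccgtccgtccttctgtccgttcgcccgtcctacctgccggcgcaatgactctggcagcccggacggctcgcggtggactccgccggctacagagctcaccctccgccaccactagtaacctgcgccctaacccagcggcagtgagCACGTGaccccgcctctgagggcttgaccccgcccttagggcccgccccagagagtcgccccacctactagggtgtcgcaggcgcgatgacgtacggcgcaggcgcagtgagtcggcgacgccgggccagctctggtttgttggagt
Taf8, chr17:47502242-47502541, minus strand: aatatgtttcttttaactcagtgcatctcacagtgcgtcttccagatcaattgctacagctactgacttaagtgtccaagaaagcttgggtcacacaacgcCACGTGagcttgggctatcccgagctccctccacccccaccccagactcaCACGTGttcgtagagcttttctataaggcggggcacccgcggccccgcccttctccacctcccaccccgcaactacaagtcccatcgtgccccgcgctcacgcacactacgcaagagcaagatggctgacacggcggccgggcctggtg

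In these windows Polr2a held a TATA box match whose first base lay at -33 relative to the start (0). Polr2i held NF-Y matches at -239 and -186. Med19 held 5 NF-Y matches and an ETS match. Gtf2f1 held a CREB match at -180, an E-box match, a TATA box match at -137, an ETS match and an NRF1 match. Polr3g held an ETS match at -29, Gtf2h5 an E-box match at -97, and Taf8 E-box matches at -149 and -99. A match says only that these letters are present. The windows were set by the start and not by the peaks, so letters and peaks need not coincide. The Polr2a peaks of knockout-GFP 1 and control-GFP 2 and the Taf8 peak of control-GFP 2 lie outside the windows shown. Neither Taf8 match lies in a Taf8 peak. The Polr2a match lies in the peak of knockout-GFP 2 only, and the Polr3g match in that of control-GFP 1 only.

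Of the 107 genes, 54 (50.5%) were marked in at least 1 library, against 24.5% of all protein-coding genes, and 12 (11.2%) in 3 or more libraries, against 6.52%. No member was marked in 5 or 6 libraries, and over all protein-coding genes 45 were marked in 5 and 3 in 6. In knockout-Acsl4 1, 1 member was marked (0.935%, exact 95% interval 0.0237 to 5.10), against 1.02% of all protein-coding genes. In knockout-Acsl4 2 it was 4 members (3.74%, 1.03 to 9.30), against 1.58%. In knockout-GFP 1 it was 17 members (15.9%, 9.54 to 24.2), against 8.2%, and in knockout-GFP 2 it was 42 members (39.3%, 30.0 to 49.2), against 17.3%. In control-GFP 1, 29 members were marked (27.1%, 19.0 to 36.6), against 16.7%, and in control-GFP 2, 2 members (1.87%, 0.227 to 6.59), against 2.0%. The member share was 1.94, 2.27 and 1.62 times the share of all genes in knockout-GFP 1, knockout-GFP 2 and control-GFP 1. In knockout-Acsl4 1 and control-GFP 2 it was 0.913 and 0.934 times that share, and in knockout-Acsl4 2 it was 2.37 times, on 4 genes. The excess was not kept in every library when the lists were made equally long. With every list cut to its 525 strongest peaks, members marked numbered 5 in knockout-GFP 1 (4.67%, against 1.90% of all genes), 1 in knockout-GFP 2 (0.935%, against 1.92%) and 2 in control-GFP 1 (1.87%, against 1.91%). The member share was then 2.46, 0.487 and 0.981 times that of all genes in these libraries, so only knockout-GFP 1 stayed above it. With the better part of each list by score it was 1.66, 1.42 and 1.37 times. The intervals cover counting error only.

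**Figure D1:**
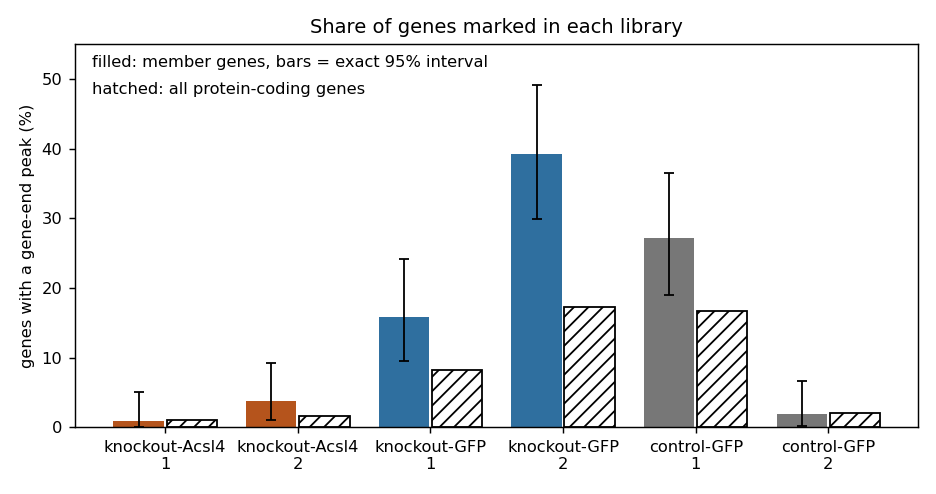
Share of genes with a gene-end peak (%, y axis) in each of the 6 libraries (x axis). Filled bars are the 107 member genes with exact 95% intervals and hatched bars are all 21887 protein-coding genes. The member share lay above that of all genes in knockout-GFP 1, knockout-GFP 2 and control-GFP 1, whose intervals do not reach the hatched bars.

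In knockout-GFP 1, knockout-GFP 2 and control-GFP 1 the marks of the members were frequent but not strong. The score of a peak, read as −log10 of its q-value, was ranked within its own library, and the resulting percentile runs up to 100 for the strongest peak. The lists differ in length, so a percentile places a peak within its own library and is not compared between libraries. The median percentile over marked members was 47.4 in knockout-GFP 1, 35.0 in knockout-GFP 2 and 47.0 in control-GFP 1. Over all marked genes it was 54.4, 52.9 and 55.7 in the same libraries. The other libraries marked few members. There the median was 39.2 in knockout-Acsl4 1, 62.5 in knockout-Acsl4 2 and 58.2 in control-GFP 2, against 41.2, 56.8 and 65.0 over all marked genes. Members held the strong end too: Maf1, a repressor of Pol III, reached 88.3 in knockout-GFP 1 and 88.9 in knockout-GFP 2, and Med19 reached 94.2 in control-GFP 1.

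**Figure D2:**
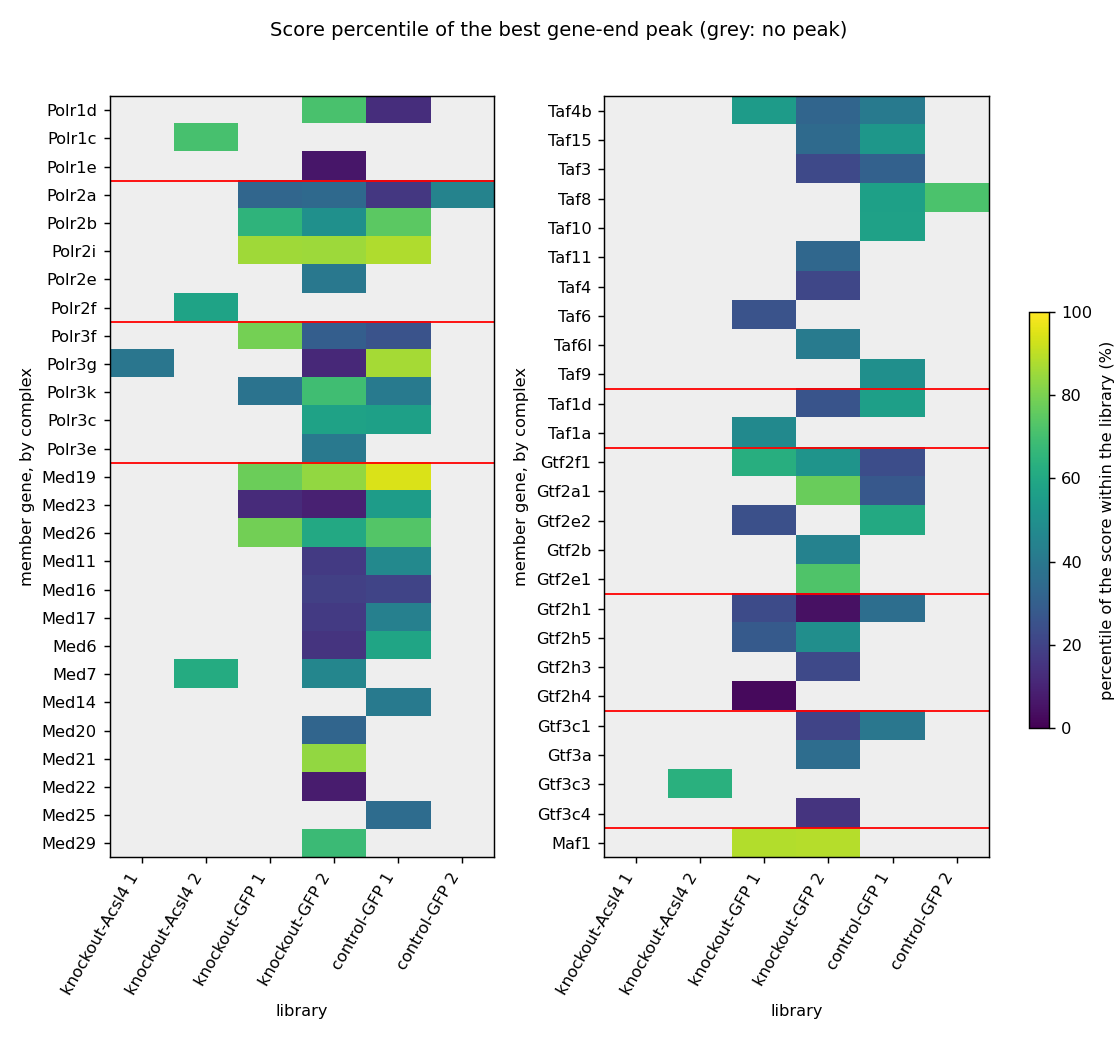
Score percentile (colour, 0 to 100%) of the best gene-end peak of 53 of the 54 marked members (rows, grouped by complex, with red lines between complexes) in the 6 libraries (columns). Grey means no gene-end peak. Most marks are in the columns of knockout-GFP 1, knockout-GFP 2 and control-GFP 1, and the columns of knockout-Acsl4 1, knockout-Acsl4 2 and control-GFP 2 hold 1, 4 and 2 filled cells.

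Counts per complex are to be read against the 24.5% of all protein-coding genes marked in at least 1 library, and against the 8.2%, 17.3% and 16.7% marked in knockout-GFP 1, knockout-GFP 2 and control-GFP 1. Pol II, which has 13 genes here, was marked at 5 of them. Polr2a, the catalytic subunit that carries the repeated tail, was the member marked in most libraries, 4 in all. Its score percentile was 33.1 in knockout-GFP 1, 34.2 in knockout-GFP 2, 16.2 in control-GFP 1 and 44.8 in control-GFP 2, with no peak in either knockout-Acsl4 library. These are middling to low values. The peaks of knockout-GFP 1, knockout-GFP 2 and control-GFP 1 lay upstream of the start, with centres 437, 204 and 345 bp before it (-437, -204 and -345), and joined into a single region, chr11:69758647-69759170. The peak of control-GFP 2 lay 347 bp inside the gene and overlapped none of them, so the marks of Polr2a in the control-GFP libraries come from different places.

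Polr2i, a small subunit that helps the polymerase correct errors, had the highest marks among Pol II genes. Its percentile was 85.7 in knockout-GFP 1, 85.3 in knockout-GFP 2 and 88.2 in control-GFP 1, from overlapping peaks that also marked the neighbouring gene Tbcb. The peak of knockout-GFP 2 spanned chr7:30231773-30232044. Polr2b, the other large subunit, had 64.9 in knockout-GFP 1, 50.3 in knockout-GFP 2 and 74.7 in control-GFP 1. Both genes were therefore marked in the same 3 libraries. Polr2e, a subunit used by Pol I, Pol II and Pol III alike, was marked in knockout-GFP 2 only (40.2), and Polr2f, also used by all of them, in knockout-Acsl4 2 only (58.0). The other 8 Pol II genes, Polr2c, Polr2d, Polr2g, Polr2h, Polr2j, Polr2k, Polr2l and Polr2m, were never marked.

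Pol III was marked at 6 of 10 genes, all 6 of them in knockout-GFP 2, where 17.3% of all genes were marked. Polr3f, Polr3g and Polr3c encode the trimer that opens the promoter with TFIIIB. Polr3f had percentiles of 79.0 in knockout-GFP 1, 29.8 in knockout-GFP 2 and 25.5 in control-GFP 1, from a peak nearer to the start of its neighbour Dzank1 than to its own. Polr3g was the only member marked in knockout-Acsl4 1, where its peak was 90 bp wide with a percentile of 39.2. It had 11.5 in knockout-GFP 2 and 86.6 in control-GFP 1, and the peak of control-GFP 1, chr13:81710984-81711477, holds these 90 bp. Polr3g was thus marked in 1 library of each group. Polr3c had 57.8 in knockout-GFP 2 and 56.7 in control-GFP 1. Polr3k, needed for RNA cleavage and reinitiation, had 38.2 in knockout-GFP 1, 69.5 in knockout-GFP 2 and 40.7 in control-GFP 1. Polr3e, which pairs with Polr3d, had 40.4 in knockout-GFP 2 alone. Polr3a, the catalytic subunit, Polr3b, Polr3d and Polr3gl were never marked.

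Maf1, which holds Pol III in check and is itself controlled by the sister kinase complex mTORC1, carried the gene-end peak with the highest score among members in both knockout-GFP libraries. Its scores were 8.86 in knockout-GFP 1 and 13.9 in knockout-GFP 2, and no other library had a peak there. The peak spanned chr15:76351139-76351276 in knockout-GFP 1 and chr15:76351098-76351520 in knockout-GFP 2, and also marked the gene Sharpin.

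Factors that place Pol III and Pol I at their genes were marked at 4 of 7 and 2 of 4 genes. Among the 7 genes of TFIIIA and TFIIIC, Gtf3c1, the DNA-binding subunit of TFIIIC, was marked in knockout-GFP 2 (20.4) and control-GFP 1 (39.7). Gtf3a, which recruits TFIIIC to the small ribosomal RNA genes, was marked in knockout-GFP 2 (35.6), as was Gtf3c4 (15.2). Gtf3c3 had a peak at its far end in knockout-Acsl4 2 (63.3), and Gtf3c2, Gtf3c5 and Gtf3c6 had none. Only Gtf3c1 was thus marked in more than 1 library. Of 5 Pol I genes, Polr1d, which Pol I and Pol III share, had 71.2 in knockout-GFP 2 and 13.1 in control-GFP 1 from peaks that did not overlap. Its partner Polr1c was marked in knockout-Acsl4 2 (70.8), Polr1e in knockout-GFP 2 (6.15), and Polr1a and Polr1b in none. Of the 4 SL1 genes, Taf1d had 25.9 in knockout-GFP 2 and 56.3 in control-GFP 1, Taf1a had 47.4 in knockout-GFP 1, and Taf1b and Taf1c were not marked.

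Mediator, the largest group with 30 genes, was marked at 14. The counts were 0 and 1 in knockout-Acsl4 1 and 2, 3 and 12 in knockout-GFP 1 and 2, and 9 and 0 in control-GFP 1 and 2, and 7 genes were marked in both knockout-GFP 2 and control-GFP 1. Med19, of the part that contacts Pol II, had percentiles of 77.4 in knockout-GFP 1, 83.8 in knockout-GFP 2 and 94.2 in control-GFP 1. Its peaks, chr2:84678083-84678445 in control-GFP 1, lay 138 to 151 bp upstream of its own start, nearer to the start of the neighbouring gene Tmx2. Med26, which connects Mediator to elongation factors, had 78.8 in knockout-GFP 1, 60.5 in knockout-GFP 2 and 73.4 in control-GFP 1. Med23, of the tail that activators bind, had 12.3, 9.17 and 55.2 in the same libraries. Med19 and Med26 thus ranked high within each of the 3 libraries. Med23 ranked low within each knockout-GFP library and middling within control-GFP 1, and these ranks are not compared between libraries.

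Other Mediator genes were marked once or in a pair of libraries. Of the head subunits, Med6 (15.2 in knockout-GFP 2 and 58.8 in control-GFP 1), Med11 (17.1 and 47.0) and Med17 (16.9 and 43.5) were marked in both of these libraries, and Med20 (32.7) and Med22 (7.56) in knockout-GFP 2 only. Med16, of the tail, had 18.9 in knockout-GFP 2 and 20.5 in control-GFP 1. Med21, of the middle part, had 83.6 and Med29 68.1 in knockout-GFP 2 only. Med14, the backbone, had 40.7 and Med25, bound by activators, 35.3 in control-GFP 1 only. Med7 was marked in knockout-Acsl4 2 (61.6) and knockout-GFP 2 (45.7), but the peak of knockout-Acsl4 2 lay 1051 bp beyond the start and that of knockout-GFP 2 lay 72 bp before it (-72), so the marks do not share a region. The kinase-module genes Med12, Med12l, Med13 and Med13l and the other 12 (Med1, Med4, Med8, Med9, Med10, Med15, Med18, Med24, Med27, Med28, Med30 and Med31) were never marked.

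TBP and most of the TAFs outside SL1 build TFIID, the factor that recognises the promoter, and some TAFs serve the SAGA coactivator. Of these 21 genes 10 were marked, and Tbp was not. Taf4b, a variant of Taf4 known from germ cells, had percentiles of 54.7 in knockout-GFP 1, 32.6 in knockout-GFP 2 and 40.7 in control-GFP 1, and was the only TAF marked in 3 libraries. Taf15, an RNA-binding protein, had 34.4 in knockout-GFP 2 and 52.9 in control-GFP 1, and Taf3, which reads an active histone mark, had 21.9 and 31.1. Taf4 (21.2), Taf6l (41.6) and Taf11 (33.3) were marked in knockout-GFP 2 only, Taf6 (25.7) in knockout-GFP 1 only, and Taf9 (49.9) and Taf10 (57.1) in control-GFP 1 only. Taf8, which brings Taf10 into TFIID, had 56.9 in control-GFP 1 and 71.7 in control-GFP 2 and no gene-end peak elsewhere. Its peaks chr17:47502103-47502354 and chr17:47502002-47502195 overlapped, with centres 63 and 193 bp inside the gene.

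The remaining Pol II factors include TFIIH, which opens DNA and phosphorylates Pol II. TFIIH genes were marked at 4 of 5. Gtf2h1 had percentiles of 22.8 in knockout-GFP 1, 4.59 in knockout-GFP 2 and 36.2 in control-GFP 1, from peaks nearer to the start of Hps5 than to its own. Gtf2h5, the smallest TFIIH subunit, which steadies the complex, had 28.1 in knockout-GFP 1 and 49.3 in knockout-GFP 2 and no peak elsewhere. Its peaks, chr17:6079710-6079882 and chr17:6079684-6079801, also marked Serac1. Gtf2h3 (21.9, knockout-GFP 2) and Gtf2h4 (2.58, knockout-GFP 1) were marked at their 3′ ends, 25 and 172 bp from the starts of Tctn2 and Vars2.

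TFIIA, TFIIB, TFIIE and TFIIF were marked at 5 of 8 genes. Gtf2f1, the large subunit of TFIIF, had percentiles of 62.8 in knockout-GFP 1, 51.9 in knockout-GFP 2 and 23.6 in control-GFP 1. Gtf2a1, of TFIIA, had 77.0 in knockout-GFP 2 and 27.5 in control-GFP 1. Gtf2e2, of TFIIE, had 24.3 in knockout-GFP 1 and 60.8 in control-GFP 1, its partner Gtf2e1 had 72.5 in knockout-GFP 2, and Gtf2b, which is TFIIB, had 44.4 in knockout-GFP 2. Gtf2a1l, Gtf2a2 and Gtf2f2 were never marked. Nor were the 3 genes of the TFII-I family, Gtf2i, Gtf2ird1 and Gtf2ird2, which are DNA-binding regulators rather than core factors.

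**Figure D3:**
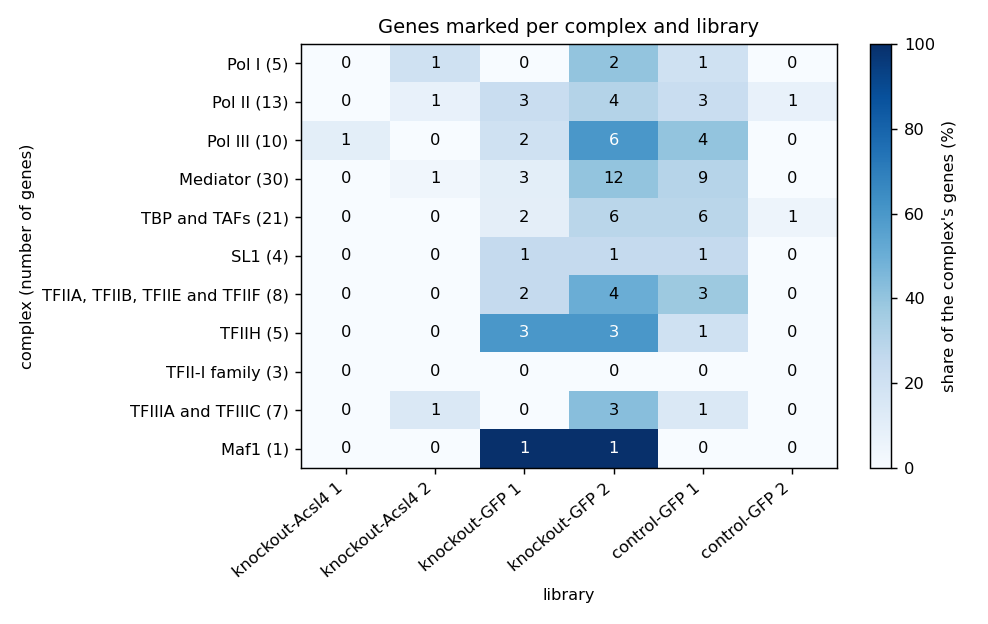
Number of marked genes (figures in the cells) and their share of the complex (colour, 0 to 100%) for 11 groups of members (rows, with gene numbers) in the 6 libraries (columns). Mediator has 12 marked genes in knockout-GFP 2 and 9 in control-GFP 1, and the TFII-I family has 0 throughout.

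Most peaks were centred near a transcription start, for members as for all protein-coding genes. RefSeq gave a start for 92 of the 107 genes, and 86 of the 97 pairs of a member and its gene-end peak could be placed. Of these, 79 (91.9%) had the peak centre within 500 bp of the gene's own start, against 88.3% of the 8702 pairs over all protein-coding genes, and 36 (41.9%) had a peak that spanned the start, against 49.6%. The median centre lay 85.5 bp upstream of the start (-85.5), and the median peak was 203 bp wide, with a range of 90 to 519 bp. Only 4 pairs were nearer to the 3′ end of the member. In knockout-Acsl4 2, 2 of 4 pairs had the centre within 500 bp of the own start, against 46.7% over all genes.

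Many of these peaks also lay at another gene. A peak that marked a member also marked another protein-coding gene, at either of its ends, in 46 of the 86 pairs (53.5%), against 34.5% over all genes. A region found in several libraries counts once for each library. In 27 pairs (31.4%, against 21.2%) another gene's start was nearer to the peak centre than the member's own. The difference was not tested, and the list of starts used here is not complete. For 15 members every placed peak was nearer to another start. They included Med19 beside Tmx2, Med29 beside Paf1, itself an elongation factor gene, Polr3c beside Rnf115, Polr3f beside Dzank1, Gtf2e1 beside Rabl3, Gtf2h1 beside Hps5, Gtf3c4 beside Ddx31, Med20 beside Bysl and Taf9 beside Rad17. A mark at such a gene cannot be assigned to the member alone.

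**Figure D4:**
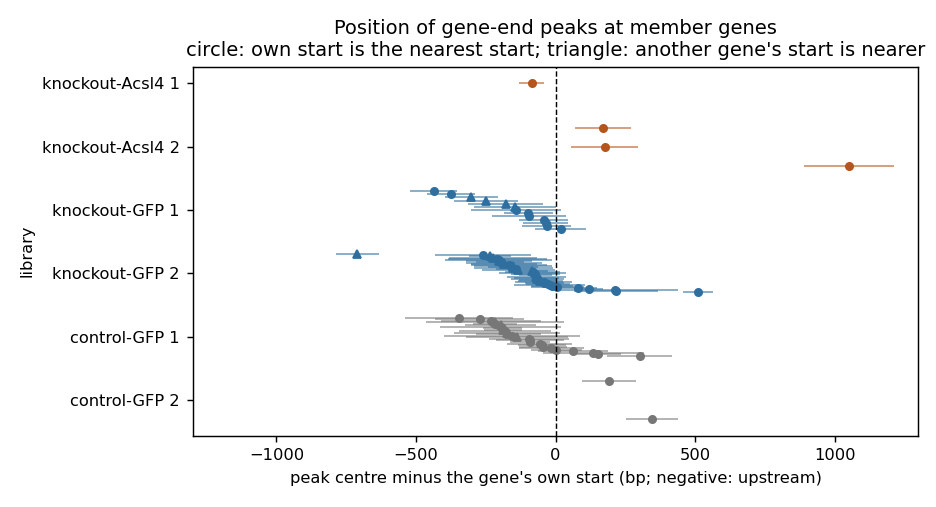
Distance in bp from a member's own start to the centre of its gene-end peak (x axis, negative is upstream) in each library (rows), for the 82 of 86 placed pairs within 1200 bp. Lines show peak width, circles peaks whose nearest start is the member's own and triangles peaks nearer to another gene's start. Peaks of knockout-GFP 1, knockout-GFP 2 and control-GFP 1 lie mostly just upstream of the start, and no peak of knockout-Acsl4 1, knockout-Acsl4 2 or control-GFP 2 spans it.

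Members marked in several libraries were mostly marked by the same DNA. Of 28 members marked in 2 or more libraries, 26 had overlapping peaks in at least 2 of them, with Med7 and Polr1d as the exceptions, and each of the 12 marked in 3 or more had a region shared by 3. Of these 12, 11 were marked in knockout-GFP 1, knockout-GFP 2 and control-GFP 1 together, and the other, Polr3g, in knockout-Acsl4 1 in place of knockout-GFP 1. The same counts were not made over all protein-coding genes, so they are not read as particular to the members. Members marked in both knockout-GFP 2 and control-GFP 1 numbered 23, which is 54.8% of those in knockout-GFP 2 and 79.3% of those in control-GFP 1. Over all genes these shares were 67.1% and 69.6%. The knockout-GFP libraries shared 13 members, 76.5% of those in knockout-GFP 1 and 31.0% of those in knockout-GFP 2, against 80.6% and 38.2% over all genes. Members marked in a single library were 24.3% of all members, against 10.5% of all genes. They numbered 3 in knockout-Acsl4 2 (2.80%, against 0.864% of all genes), 3 in knockout-GFP 1 (2.80%, against 0.868%), 16 in knockout-GFP 2 (15.0%, against 4.35%) and 4 in control-GFP 1 (3.74%, against 4.14%). Of the 4 member peaks in knockout-Acsl4 2, 0 overlapped a gene-end peak of the same gene in another library. This too was not counted over all genes and is not read as particular to the members.

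Going by the labels, loss of Rictor from beta cells is the difference between knockout-GFP and control-GFP islets. No peak checks this genotype. Acsl4 had peaks in knockout-GFP 1 and control-GFP 1 but not in the other library of either group, and the labels were not tested. The number of marked members averaged 29.5 ± 17.7 in knockout-GFP and 15.5 ± 19.1 in control-GFP (SD, n = 2 each), and the difference of 14 was within the spread of the libraries (two-sided exact permutation p = 0.667, where 0.333 is the smallest possible). Maf1 and Gtf2h5 were marked in both knockout-GFP libraries and neither control-GFP library, 2 of 107 members (1.87%), against 1.04% of all genes. Taf8 alone showed the opposite, with marks in control-GFP 1 and 2 and none in knockout-GFP (0.935%, against 0.0914%). With counts this small, no difference from the background is claimed. The knockout-GFP-only count was 12 without control-GFP 1 (11.2%, against 5.60% of all genes), 19 without knockout-GFP 1 (17.8%, against 5.54%) and 5 without knockout-GFP 2 (4.67%, against 1.94%). Leaving out control-GFP 2 gave 5 control-only members, Taf8, Taf9, Taf10, Med14 and Med25 (4.67%, against 4.40%). Without control-GFP 2 the difference in marked members was 0.5, without knockout-GFP 2 it was 1.5, without control-GFP 1 it was 27.5 and without knockout-GFP 1 it was 26.5. It was 1.5 with every list cut to 525 peaks and 3.5 with the better part of each list by score. With peaks nearest to the member's own start, which could be judged for 92 members only, it was 4.

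Taf8 did not keep its pattern with a wider window. At 3000 bp around the gene ends, knockout-GFP 2 also marked Taf8, through a weak peak at chr17:47484401-47484518 with a score of 1.53, near the other end of the gene. When peaks had to be nearest to the member's own start, Gtf2h5 no longer counted, since the peak of knockout-GFP 2 was nearest to the start of Serac1, and Maf1 could not be judged.

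By their labels, knockout-Acsl4 and knockout-GFP islets, both BetaRicKO, differ in the gene the virus carried, which the Acsl4 peaks above do not bear out. Marked members averaged 2.5 ± 2.12 in knockout-Acsl4 and 29.5 ± 17.7 in knockout-GFP (SD, n = 2 each), a difference of -27 with a two-sided exact permutation p of 0.333, the smallest possible. The difference was -2.5 (exact permutation p = 0.667) with every list cut to 525 peaks, and cut lists hold fewer marks by construction. It was -9 with the better part of each list. With peaks nearest to the member's own start, which could be judged for 92 members only, it was -12.5. Knockout-Acsl4 2 had the longest list, with 5874 peaks and 4 marked members, and knockout-GFP 1 had 2206 peaks and 17 marked members. The part of list length in the difference was not tested. Marked in both knockout-Acsl4 libraries and neither knockout-GFP library were 0 members, against 0.00914% of all genes. Marked in both knockout-GFP libraries and neither knockout-Acsl4 library were 13 members (12.1%), against 5.79% of all genes. They were Polr2a, Polr2b, Polr2i, Polr3f, Polr3k, Maf1, Med19, Med23, Med26, Taf4b, Gtf2f1, Gtf2h1 and Gtf2h5. These are all 13 members that both knockout-GFP libraries marked, and over all genes 1267 of 1447 such genes (87.6%) had the same pattern. Knockout-Acsl4 1 and 2 marked 224 and 345 genes in all, against 1795 and 3788 in knockout-GFP 1 and 2, and the part of this gap in the members' counts was not tested. Leaving out knockout-GFP 1 gave 40 members marked in knockout-GFP only (37.4%, against 15.9% of all genes). Without knockout-Acsl4 1 the knockout-Acsl4-only count was 3, Gtf3c3, Polr1c and Polr2f (2.80%, against 0.991%). Without knockout-GFP 2 the difference in marked members was -14.5. With every list cut to 525 peaks, the knockout-GFP-only count was 1.

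Libraries labelled knockout-Acsl4 differ from control-GFP in genotype and virus together. Marked members averaged 2.5 ± 2.12 in knockout-Acsl4 and 15.5 ± 19.1 in control-GFP (SD, n = 2 each), with a difference of -13 and a two-sided exact permutation p of 0.667. Again 0 members were marked in both knockout-Acsl4 libraries and neither control-GFP library, against 0.00457% of all genes. Marked in both control-GFP but in no knockout-Acsl4 library were Polr2a and Taf8, 2 members (1.87%), against 1.32%. The difference was 0.5 without control-GFP 1 and -26.5 without control-GFP 2, and the control-only count was 28 without control-GFP 2 (26.2%, against 15.3% of all genes), so these values rest on single libraries. With every list cut to 525 peaks the difference was -1, and with the better part of each list -5.5. With peaks nearest to the own start, judged for 92 members only, it was -8.5. Without knockout-Acsl4 1 the knockout-Acsl4-only count was 4, with Med7 added to the 3 named above (3.74%, against 1.06%). This comparison shares its libraries with both others.

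Partner genes of the same pathways were read beside the members. Of 30 genes for pausing and elongation, 24 were marked in at least 1 library and 6 in 3 or more, where 24.5% and 6.52% of all protein-coding genes were. The counts were 2 and 1 in knockout-Acsl4 1 and 2, 8 and 17 in knockout-GFP 1 and 2, and 17 and 4 in control-GFP 1 and 2. Ccnk, the cyclin of the elongation kinases Cdk12 and Cdk13, was marked in all 6 libraries, with percentiles of 41.5 and 89.0 in knockout-Acsl4 1 and 2, 70.6 and 86.7 in knockout-GFP 1 and 2, and 86.9 and 4.18 in control-GFP 1 and 2. Larp7, of the complex that holds the elongation kinase inactive, was marked in 4 libraries, and Cdk13, Ell, Ell2 and Eaf2 in 3. Among 8 partners of TFIIH and Mediator, 5 were marked in at least 1 library, with Cdk19, a Mediator kinase, in 3 libraries (37.9 in knockout-GFP 1, 33.7 in knockout-GFP 2 and 78.8 in control-GFP 1). Of the 15 partners at TFIIIB, SNAPc, Pol I and TBP, 5 were marked and 0 reached 3 libraries, to be read against the same shares of all genes.

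The promoters of marked and unmarked members were compared by their letters, with no test. Windows were available for 49 marked and 43 unmarked members. The ETS match CCGGAAG was present in 15 of the 49 (30.6%) and 18 of the 43 (41.9%), against 12.9% of all protein-coding genes in the table and 21.3% of those marked in at least 1 library. E-box matches were present in 9 (18.4%) and 10 (23.3%), against 8.91% and 11.6%. Both matches were thus more frequent in marked and in unmarked members than over all protein-coding genes, with no test of the difference. YY1 matches were found in 4 (8.16%) and 2 (4.65%), against 2.14% and 4.12%, and NRF1 matches in 3 (6.12%) and 3 (6.98%), against 2.61% and 5.73%. CREB matches were found in 4 marked members, Gtf2f1, Gtf3c1, Med21 and Taf11 (8.16%), and 0 unmarked ones, against 2.54% and 4.46%. SP and KLF matches (20.4% and 14.0%, against 17.3% and 28.9%), NF-Y matches (34.7% and 32.6%, against 42.3% and 49.7%) and TATA box matches (12.2% and 16.3%, against 14.8% and 7.05%) complete the promoter motifs. The FOXO letters GTAAACA stood in 2 marked members, Gtf2e1 and Gtf2h3, and 0 unmarked ones (4.08% and 0%, against 3.45% and 2.70%). Matches were counted in the windows around a start, whether or not a peak covered them. The FOXO matches of Gtf2e1 and Gtf2h3 and the CREB match of Taf11 lay outside the peaks of these genes. The shares therefore do not describe letters in open regions. Some of these motifs are short enough to occur often by base composition, and the median G and C content was 62.3% in marked members, 58.0% in unmarked members, 56.3% over all protein-coding genes and 62.5% over marked ones.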

How the data were processed

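ATAC-seq peak lists of 6 libraries were used, 1 per library. The authors deposited chromosome, start, end, name and a value per peak with no header, and the deposited value was read as a −log10 q-value because the lowest in every list lies just above 1.30. Per the submitters' processing notes the tools were MACS2 2.1.1, BWA 0.7.10, Trimmomatic, FastQC and SAMtools, whose roles and settings are not stated there. The notes name human builds, although chromosome names and the position of peaks at gene starts are those of mouse GRCm38, which was used. Read depth is unknown here, so the number of peaks limits what could be marked.

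Gene positions came from a RefSeq table of GRCm38.p6 (21887 protein-coding genes, mitochondrial genes left out) and starts and promoters from a second RefSeq table, which gave 92 of the 107 members. Coordinates are 1-based. Libraries were grouped by title, and numbers of marked members were compared by two-sided exact permutation tests. No test per gene was made, since 2 libraries against 2 allow none below 0.333. The replicate number was not used as a block because no label ties the libraries to shared animals or days. Members and lists were chosen with earlier results of these data known. Genes were named if marked in 3 or more libraries, marked in knockout-Acsl4 or control-GFP 2, marked along group lines, or highest in a library, and the remaining marked members were added by complex after their values were seen. One marked member is counted in the totals but not reported by name here. Alternatives were a window of 3000 bp, the better part of each list by score, lists of 525 peaks, more overlap, starts only, autosomes only, and each library left out. The overlap count was checked on simulated peaks. Python 3.11.15, pandas 2.3.3 and SciPy 1.17.1 were used.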

Additional observations from a re-analysis of the deposited data

How the results depend on the processing

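The direction of the difference in mean marked members held in every comparison under every alternative, except that knockout-Acsl4 minus control-GFP was 0.5 without control-GFP 1. Between single libraries the direction did not always hold. Knockout-GFP 1 marked 17 members and control-GFP 1 marked 29, while knockout-GFP 2 marked 42 and control-GFP 2 marked 2. Knockout-Acsl4 2 marked 4, more than control-GFP 2. The size of the mean difference did not hold. With lists of 525 peaks the difference was 1.5 for knockout-GFP minus control-GFP, -2.5 for knockout-Acsl4 minus knockout-GFP and -1 for knockout-Acsl4 minus control-GFP. In the same order it was 3.5, -9 and -5.5 with the better part of each list, and 4, -12.5 and -8.5 with peaks nearest to the own start. The excess of the member share over all genes was kept in knockout-GFP 1 only of the 3 libraries with many gene-end peaks when lists held 525 peaks. Leaving out each library in turn gave 0.5 to 27.5 for knockout-GFP minus control-GFP, -39.5 to -14.5 for knockout-Acsl4 minus knockout-GFP and -26.5 to 0.5 for knockout-Acsl4 minus control-GFP. The number of members marked in knockout-GFP only, 2 against control-GFP, was 1 with lists of 525 peaks, 1 with starts only, 0 with peaks nearest to the member's own start, and 2 to 19 with a library left out. The single control-only member against knockout-GFP was 0 at 3000 bp and 0 with lists of 525 peaks, and the count was 1 to 5 with a library left out. Against knockout-Acsl4, the 13 knockout-GFP-only members became 6 with the better part of each list by score, 1 with lists of 525 peaks, 6 with peaks nearest to the own start, and 13 to 40 with a library left out. The 2 control-only members against knockout-Acsl4 became 1 with the better part of each list, 0 with lists of 525 peaks, 28 between knockout-Acsl4 1 and control-GFP 1 alone, and 2 to 28 with a library left out. Knockout-Acsl4-only counts stayed 0, or 0 to 3 against knockout-GFP and 0 to 4 against control-GFP with a library left out. Smaller lists hold fewer marks by construction. The alternatives by starts only and by nearest start could judge only the 92 members with a RefSeq start. Maf1, Med23 and Taf4b have none, so they left the knockout-GFP-only counts for that reason. The cause of the other shifts was not tested. The alternatives by nearest start and with 1 library a group were chosen after the data were seen.

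With the replicate number as a block, the mean within-pair difference was 14 for knockout-GFP minus control-GFP (exact sign-flip permutation p = 1), -27 for knockout-Acsl4 minus knockout-GFP (p = 0.5, the smallest possible) and -13 for knockout-Acsl4 minus control-GFP (p = 1), and no count changed. Over genes marked in any of the 4 libraries of a comparison, the difference between replicates 1 and 2 correlated between groups at 0.112, -0.0449 and 0.232 in these comparisons. With lists of such unlike length, these values cannot show whether libraries of the same number belong together. The short name in the title of knockout-Acsl4 2 also carries a different number.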

Other observations

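Peaks inside member genes, more than 1000 bp from both ends, were looked at because the rule on gene ends does not see them. The gene Gtf2ird1, a TFII-I family gene next to Gtf2i, was never marked at an end, but had an internal peak with percentiles of 64.6 in knockout-Acsl4 1, 82.3 in knockout-GFP 1, 97.0 in knockout-GFP 2 and 82.5 in control-GFP 1. The 4 peaks overlapped within chr5:134378880-134379101 and lay 21329 to 21385 bp from the nearer gene end. Knockout-Acsl4 2 had a different, weaker peak in the gene (36.5), and control-GFP 2 had none. The region was thus a peak in at least 1 library of every group.

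Some unmarked members had internal peaks near a RefSeq start that the gene ends miss. Taf1, the largest TAF, had internal peaks in knockout-GFP 2 (35.6) and control-GFP 1 (58.8), with centres 122 and 75 bp upstream of a RefSeq start (-122 and -75) but 5041 and 5088 bp from the nearer end of the gene record. Gtf2ird2 had one 501 bp and Gtf2i one 1050 bp inside a RefSeq start in knockout-GFP 2, with percentiles of 34.5 and 8.15. Of these genes, only Taf1 had peak centres within 500 bp of a start. These genes were chosen after their values were seen, and whether other genes are missed in the same way was not tested.

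Pol I subunits listed under older symbols were not members by the rule. Twistnb was marked in control-GFP 1 (24.0), and Cd3eap and Znrd1 in no library, and the Pol III subunit gene Crcp was not marked either.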
